A study of Homo sapiens with 12 samples.

Results

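Collagen genes were examined in A375, a human melanoma cell line, to describe how their mRNA levels differed between cells that express active forms of YAP, a form that is defective in binding TEAD factors, or no added YAP. A gene was counted as a collagen gene when its symbol in the expression table had the form COL, a number, A and a number. By this rule 43 collagen symbols were found among 31585 loci, and where a symbol stood on several loci, as for 2 of them, the locus with the highest mean was used. Cells had been stably transduced with a retrovirus and selected with hygromycin. The Control cells carried the empty MSCV-IRES-Hygro vector, and the other groups carried human YAP in the same vector with serine-to-alanine changes: S127A (YAPS127A), S127A with S94A (YAPS127A,S94A), or S127A with S381A (YAP2SA). For YAP2SA the sample titles were followed, since the condition field of those libraries adds S94A. Each group had 3 libraries from separately plated cultures of a single transduced line, so p-values measure the spread between cultures and not between transductions. Culture before lysis lasted 24 h according to the sample records, and a longer time is given in the methods of the study.

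Collagens are extracellular matrix proteins whose chains wind into helices and assemble into several kinds of structure. Fibrillar collagens (types I, II, III, V, XI and others) form the rope-like fibrils of connective tissue, and fibril-associated collagens (FACITs) bind to the surface of those fibrils. Type IV collagen forms the network of basement membranes, type VI forms beaded filaments, type VII anchors the epidermis to the dermis, type VIII forms short-chain networks, type XIII spans the cell membrane, and type XVIII is a proteoglycan of basement membranes. YAP is a transcriptional coactivator that binds DNA through TEAD factors. The serine changed in S127A is the site through which LATS kinases hold YAP in the cytoplasm, the serine changed in S381A lies in the region that controls YAP degradation, and the serine changed in S94A is needed for TEAD binding.

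Levels are given as FPKM, the number of fragments per kilobase of transcript, scaled to all mapped fragments, so levels of different genes can be compared per length. Of the 43 collagen genes, 21 reached 1 FPKM in at least 3 libraries and were tested, and 22 were not, with 0.936 FPKM as the highest value of any of these in any library. Among the 21 genes tested, 13 reached 1 FPKM in every library, while 8 were under it in some library and passed through the others. Differences are in mean log2(FPKM + 1), with a standard error (SE), from a limma fit over all 15055 loci that passed the same filter. A difference is called past both thresholds when its adjusted p was under 0.05 and the ratio of group mean FPKM was over 2. Errors of FPKM are SD with n = 3.

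All libraries were similar in the number of loci above 0, 20161 to 20656, while their size cannot be read from FPKM. The YAP1 transcript, which the vectors encode, stood at 34.1 and 33.0 FPKM in Control replicates 1 and 2, at 149 to 162 FPKM in YAPS127A,S94A, at 159 to 187 FPKM in YAPS127A and at 130 to 149 FPKM in YAP2SA. The library labelled Control replicate 3 held 172 FPKM of YAP1, within the range of the YAP-expressing cells. Counts of calls in comparisons with Control are therefore also given without that library, and single values where they change a call or move most. Of 9 melanocyte lineage markers, the summed level was 287 to 351 FPKM in Control, 306 to 343 in YAPS127A,S94A, 237 to 308 in YAPS127A and 46.6 to 55.5 in YAP2SA. SOX10 and S100B carried most of it outside YAP2SA and averaged 263 and 46.9 FPKM in Control against 6.16 and 0.807 FPKM in YAP2SA. In Control and YAP2SA, MITF averaged 8.59 and 35.0 FPKM and PAX3 5.89 and 6.51 FPKM. PMEL, MLANA, TYR, TYRP1 and DCT were all under 1 FPKM in every library, so the pigment genes that define differentiated melanocytes were low in all groups. The 7 fibroblast markers summed to 43.2 to 53.6 FPKM in every library, mostly from the locus that PDGFRA shares with FIP1L1 and LNX1. DPT was at 0 throughout and DCN, FAP and THY1 did not pass the filter. PDGFRB, whose locus also lists CSF1R and PDGF, averaged 2.61 FPKM in Control, 2.82 in YAPS127A,S94A, 4.74 in YAPS127A and 10.4 in YAP2SA. LUM averaged 1.38, 1.39, 1.80 and 2.30 FPKM in the same order. Of 4 leukocyte markers, whose sum was 11.4 to 17.2 FPKM in the other groups and 2.48 to 3.17 FPKM in YAP2SA, LYZ carried nearly all and the defining PTPRC was at 0.0119 FPKM or less. The 4 epithelial markers summed to 6.28 to 11.3 FPKM outside YAP2SA and to 2.13 to 2.19 FPKM in it. Members of this sum moved in opposite directions. KRT14 averaged 6.87 FPKM in Control and 0.434 in YAP2SA, while KRT5 averaged 0.0282 and 1.56 FPKM, and EPCAM and CDH1 did not pass the filter. The 3 endothelial markers summed to 0.656 FPKM or less in every library. In bulk RNA, fewer cells of a type and less RNA per cell cannot be told apart, and the part of these markers in the collagen results was not tested.

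In YAP2SA cells most collagen genes tested differed from Control, in both directions. Transcripts of several fibrillar collagens and of the FACIT gene COL12A1 rose. The fibrillar genes COL2A1 and COL11A2 fell, as did the FACIT genes COL9A3 and COL19A1. The basement membrane genes COL4A1 and COL4A2 and the type VI gene COL6A1 also fell. Of the 21 genes tested, 5 were higher than in Control past both thresholds, where 7.59% of all loci tested were, and 9 were lower, where 7.86% of all loci were (15.5% in either direction). By adjusted p alone, 9 were higher and 11 lower, against 22.9% and 19.5% of all loci (42.3% in either direction), and only COL16A1, a FACIT with 5.44 ± 0.362 FPKM in Control and 4.74 ± 1.09 in YAP2SA, did not pass (difference -0.18, SE 0.14, adjusted p = 0.34). The median difference of the 21 genes was -0.73, beside 0.01 for all loci. Without the library labelled Control replicate 3, 6 were higher and 9 lower past both thresholds, where 14.9% of all loci passed in either direction. The 14 genes called with it were called without it, with COL1A1 at 4.75 and COL19A1 at -4.17, and COL5A1 was added.

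**Figure D1:**
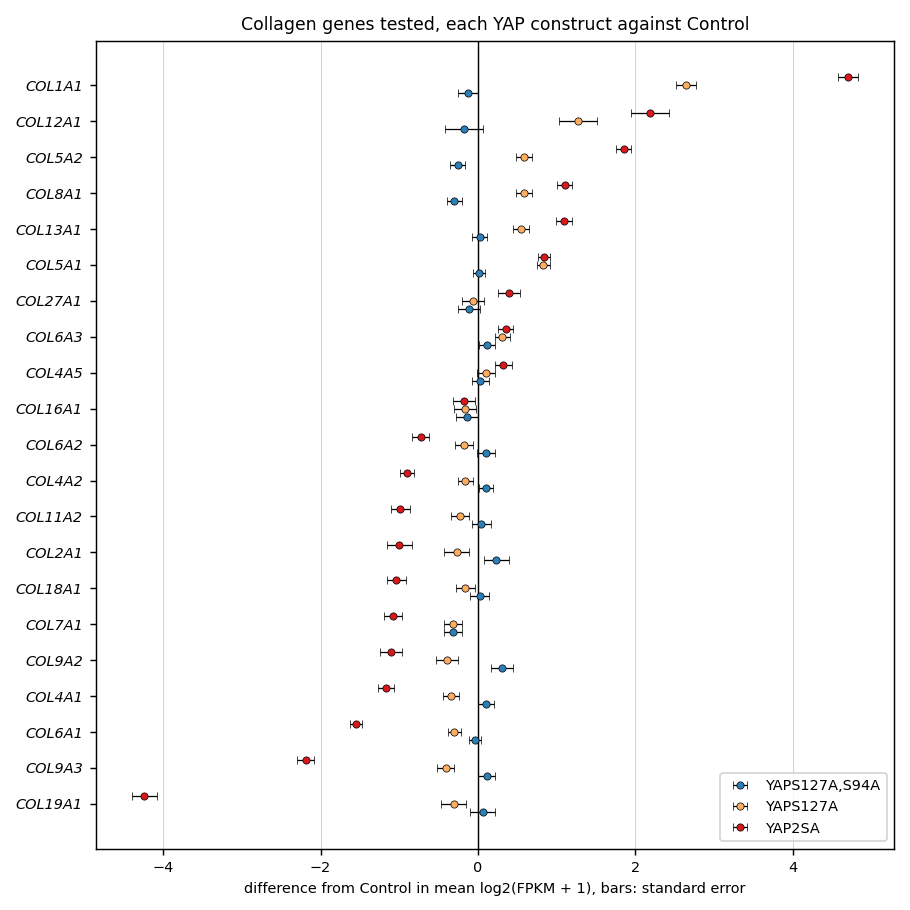
Difference from Control in mean log2(FPKM + 1) for the 21 collagen genes tested, with SE as bars, for YAPS127A,S94A (blue), YAPS127A (orange) and YAP2SA (red). The red points run from -4.24 for COL19A1 to 4.70 for COL1A1, and the blue points lie between -0.32 and 0.30.

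The fibrillar gene COL1A1 (chr17:48261462-48278993, minus strand, GRCh37 as for all gene positions here) encodes the main chain of type I collagen, the collagen of skin, bone and tendon. COL1A1 stood at 0.301, 0.236 and 0.428 FPKM in the 3 Control libraries and at 0.204, 0.261 and 0.162 FPKM in YAPS127A,S94A. In YAPS127A it reached 8.42, 7.28 and 6.11 FPKM, and in YAP2SA 36.3, 36.0 and 27.9 FPKM. The groups formed separate steps, with Control and YAPS127A,S94A together at the bottom. YAP2SA exceeded Control by 4.70 (SE 0.13, limma adjusted p = 8.9e-10, FPKM ratio 104) and exceeded YAPS127A by 2.06 (SE 0.13, adjusted p = 6.6e-07, ratio 4.6). COL1A1 passed the filter only through the YAPS127A and YAP2SA libraries, so its appearance among the genes tested already required a higher level there. In the library labelled Control replicate 3, where YAP1 was high, COL1A1 was at 0.428 FPKM, far under the 6.11 FPKM of the lowest YAPS127A library.

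The usual partner chain of type I collagen, COL1A2, did not follow to a comparable level. COL1A2 was at 0.0497 FPKM or less in all Control, YAPS127A,S94A and YAPS127A libraries and at 0.180, 0.179 and 0.739 FPKM in YAP2SA, too low to be tested. The chain of type III collagen, COL3A1, whose locus also lists MIR3606, was likewise not tested, with 0.193, 0.250 and 0.182 FPKM in YAP2SA and at most 0.0381 FPKM elsewhere. With no filter on low values both passed the thresholds as higher in YAP2SA than in Control (adjusted p = 0.038 for COL1A2 and 1.0e-05 for COL3A1).

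Type V collagen starts and limits the growth of type I fibrils. Its chain gene COL5A2 (chr2:189896624-190090038, minus strand) stood at 17.5, 17.6 and 23.4 FPKM in Control and at 14.7, 16.9 and 16.4 FPKM in YAPS127A,S94A. It was measured at 29.7, 29.3 and 29.4 FPKM in YAPS127A and at 69.7, 76.7 and 70.9 FPKM in YAP2SA. All YAP2SA libraries were above all others, and the highest Control value was that of replicate 3. The difference between YAP2SA and Control was 1.85 (SE 0.10, adjusted p = 1.2e-07, FPKM ratio 3.72), and 1.98 without the library labelled Control replicate 3 (ratio 4.13).

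The other measured chain of type V, COL5A1 (chr9:137533649-137736689, plus strand), had a different order. COL5A1 averaged 3.87 ± 0.426 FPKM in Control, 3.90 ± 0.193 in YAPS127A,S94A, 7.63 ± 0.473 in YAPS127A and 7.73 ± 0.608 in YAP2SA. Both active forms of YAP had thus near equal levels, and the interval of libraries in YAP2SA, 7.15 to 8.36 FPKM, covered that in YAPS127A, 7.31 to 8.17 FPKM. Against Control the difference was 0.84 in YAP2SA (SE 0.08, adjusted p = 1.4e-05) and 0.83 in YAPS127A (SE 0.08, adjusted p = 0.00018), each with an FPKM ratio just under 2. Without the library labelled Control replicate 3 both ratios exceeded 2 (2.13 and 2.10). YAP2SA differed from YAPS127A by 0.02 (SE 0.08, adjusted p = 0.91).

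The ratio of COL5A2 to COL5A1 FPKM within a library shows the unequal change of these chains. It was 4.82 to 5.36 in Control, 3.94 to 4.23 in YAPS127A,S94A, 3.6 to 4.06 in YAPS127A and 8.33 to 10.7 in YAP2SA. The YAP2SA libraries did not overlap any other group. The smallest p of an exact two-sided permutation test is 0.1 for groups of 3, and such ratios are given here as a description, with no test. The type V chain COL5A3 was under the filter in all libraries, with 0.697 to 0.936 FPKM in Control and 0.236 to 0.328 FPKM in YAP2SA.

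The remaining fibrillar genes were low or moved little. COL27A1, a fibrillar collagen of developing cartilage, averaged 7.59 ± 1.37 FPKM in Control and 10.2 ± 0.209 in YAP2SA, a difference of 0.39 (SE 0.14, adjusted p = 0.041). COL2A1 (chr12:48366750-48398337, minus strand), the fibril collagen of cartilage, was at 1.12, 1.31 and 0.772 FPKM in Control, at 2.18, 1.13 and 1.09 FPKM in YAPS127A,S94A, at 0.638, 0.651 and 0.849 FPKM in YAPS127A and at 0.0274, 0.0504 and 0.0119 FPKM in YAP2SA. Its partner in cartilage fibrils, COL11A2 (chr6:33130458-33160276, minus strand), was at 2.18, 2.41 and 3.24 FPKM in Control, at 2.69, 2.64 and 2.74 FPKM in YAPS127A,S94A, at 2.13, 1.84 and 2.23 FPKM in YAPS127A and at 1.0, 0.730 and 0.684 FPKM in YAP2SA. For both genes the YAP2SA libraries were the lowest. COL2A1 passed the filter only through Control and YAPS127A,S94A, where it is higher. COL11A2 reached 1 FPKM in 1 YAP2SA library and in all libraries of the other groups, where it is higher. Against Control, COL2A1 fell in YAP2SA by 1.0 (SE 0.16, adjusted p = 0.00057), with mean FPKM 35.7-fold lower from a level near 1 FPKM. COL11A2 fell by 0.99 (SE 0.12, adjusted p = 5.2e-05), with mean FPKM 3.23-fold lower. Of the 6 fibrillar genes tested, 4 were higher and 2 lower by adjusted p, where 22.9% and 19.5% of all loci were. COL11A1 and COL24A1 were under 0.21 FPKM in every library.

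**Figure D2:**
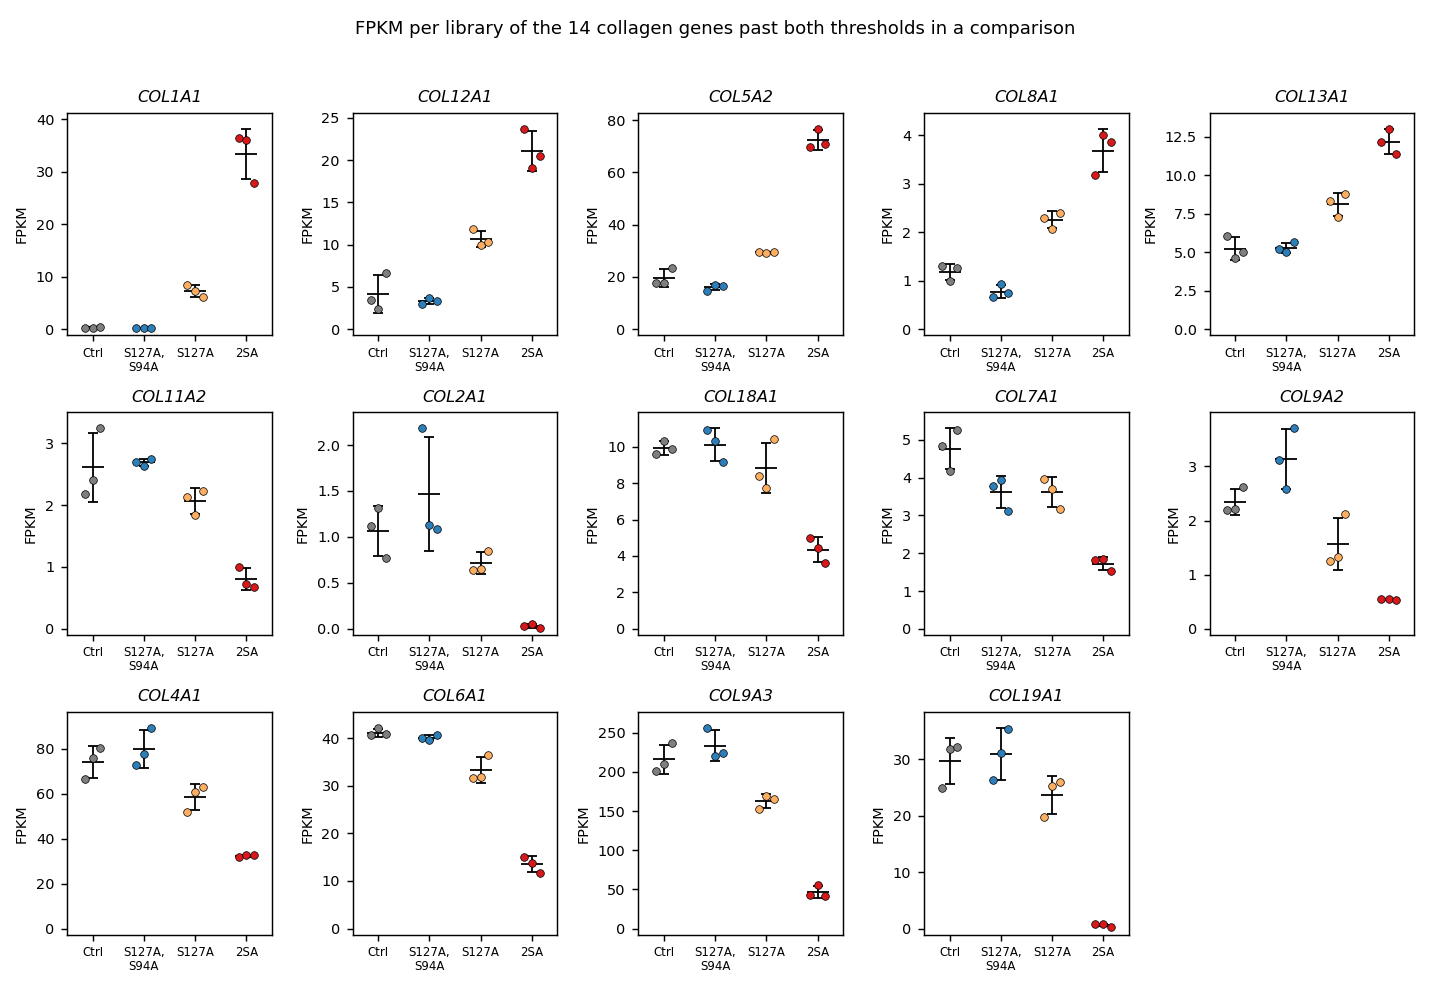
FPKM in each library (points), with group mean and SD (bars, n = 3), in Control (Ctrl), YAPS127A,S94A, YAPS127A and YAP2SA (2SA), for the 14 collagen genes past both thresholds in at least 1 of 5 comparisons, ordered by their difference between YAP2SA and Control. In the first 5 panels YAP2SA is the highest group, and in the other 9 it is the lowest, with COL19A1 at 0.336 to 0.791 FPKM.

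FACIT genes moved in both directions. COL12A1 (chr6:75794042-75915983, minus strand) encodes a collagen that coats type I fibrils and links them to the surrounding matrix. COL12A1 was at 3.44, 2.33 and 6.66 FPKM in Control and at 2.92, 3.63 and 3.32 FPKM in YAPS127A,S94A. In YAPS127A it was at 11.8, 9.93 and 10.3 FPKM and in YAP2SA at 23.7, 19.1 and 20.5 FPKM. The library labelled Control replicate 3 was the highest of the Control and YAPS127A,S94A libraries but below every YAPS127A library. YAP2SA exceeded Control by 2.19 (SE 0.24, adjusted p = 3.1e-05, FPKM ratio 5.09), and by 2.52 without that library (ratio 7.32).

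COL19A1 (chr6:70576448-70922171, plus strand) encodes a minor FACIT found at basement membrane zones. It stood at 24.9, 31.7 and 32.2 FPKM in Control, at 26.3, 31.0 and 35.4 FPKM in YAPS127A,S94A and at 19.8, 25.2 and 26.0 FPKM in YAPS127A. In YAP2SA COL19A1 was at 0.791, 0.751 and 0.336 FPKM, below the filter in every library. It passed the filter only through the other groups, where it is higher. YAP2SA was lower than Control by a difference of -4.24 (SE 0.16, adjusted p = 7.9e-09), with mean FPKM 47.2-fold lower, and lower than YAPS127A by -3.93 (SE 0.16, adjusted p = 3.4e-08). This was the largest fall among the 21 genes.

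Type IX collagen decorates the type II fibrils of cartilage, and its gene COL9A3 (chr20:61447596-61472511, plus strand) had the highest level of all collagen genes in Control. COL9A3 was at 201, 210 and 237 FPKM in Control, at 256, 221 and 224 FPKM in YAPS127A,S94A, at 153, 169 and 166 FPKM in YAPS127A and at 43.2, 55.8 and 41.3 FPKM in YAP2SA. The groups with an active YAP lay below both others without overlap. The difference between YAP2SA and Control was -2.19 (SE 0.11, adjusted p = 7.3e-08), with mean FPKM 4.61-fold lower. The second chain, COL9A2 (chr1:40766161-40783485, minus strand), was at 2.20, 2.22 and 2.62 FPKM in Control, at 3.12, 2.59 and 3.70 FPKM in YAPS127A,S94A, at 1.26, 1.32 and 2.12 FPKM in YAPS127A and at 0.545, 0.556 and 0.538 FPKM in YAP2SA. COL9A2 differed between YAP2SA and Control by -1.11 (SE 0.14, adjusted p = 7.6e-05). It passed the filter only through the groups other than YAP2SA, where it is higher. COL9A3 exceeded COL9A2 in every library, by 60.5 to 129 times in FPKM, and these ratios overlapped between YAP2SA (76.9 to 100) and Control (90.3 to 94.9). COL9A1, which lies 3.6 kb from COL19A1 on the other strand, was at 0.135 FPKM or less in all libraries and at 0 in all 3 YAP2SA libraries.

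Sequences upstream of the FACIT genes with the most opposite changes are shown to set the rising gene beside the falling gene. The 250 bases before the annotated start are taken from RefSeq on GRCh38.p14 and written on the strand of the gene, with the TEAD motif GGAATG, searched on both strands, in capitals. COL12A1 is at chr6:75206054-75206303 (minus strand) and COL19A1 at chr6:69866306-69866555 (plus strand).
COL12A1: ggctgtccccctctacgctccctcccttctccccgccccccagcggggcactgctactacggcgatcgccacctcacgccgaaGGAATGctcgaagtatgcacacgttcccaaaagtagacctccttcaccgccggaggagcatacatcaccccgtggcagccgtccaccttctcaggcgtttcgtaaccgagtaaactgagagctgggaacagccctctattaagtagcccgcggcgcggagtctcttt
COL19A1: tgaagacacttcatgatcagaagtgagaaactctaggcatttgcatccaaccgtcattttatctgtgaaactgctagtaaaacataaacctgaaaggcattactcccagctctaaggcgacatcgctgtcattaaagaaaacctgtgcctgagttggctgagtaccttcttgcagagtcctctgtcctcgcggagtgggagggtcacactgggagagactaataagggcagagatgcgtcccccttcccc
The COL12A1 window held 1 TEAD motif, 167 to 162 bases before the start, and the COL19A1 window held none. Windows were matched for 31 of the 43 collagen genes, 43 windows in all. Genes without a window included COL1A1, COL5A2, COL9A3 and COL6A1. In all, 3 of these 43 windows (COL10A1, COL11A2 and COL12A1) held the TEAD motif, beside 11.9% of all 35116 RefSeq windows of this length. COL11A2 was lower in YAP2SA than in Control (-0.99), unlike COL12A1, and COL10A1 was not tested. An AP-1 motif, TGANTCA, was held by 1 collagen window, that of COL10A1, beside 6.57% of all windows. A match describes letters only and was not tested as a binding site.

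Both main basement membrane genes fell in YAP2SA. COL4A1 (chr13:110801310-110959504, minus strand) and COL4A2 (chr13:110958159-111165556, plus strand) encode the chains of the most widespread type IV collagen. COL4A1 was at 66.5, 75.7 and 80.5 FPKM in Control, at 72.9, 77.4 and 89.1 FPKM in YAPS127A,S94A, at 52.0, 60.8 and 63.0 FPKM in YAPS127A and at 31.7, 32.7 and 32.5 FPKM in YAP2SA. COL4A2 was at 137 to 164 FPKM in Control, 152 to 172 in YAPS127A,S94A, 119 to 148 in YAPS127A and 78.4 to 80.2 in YAP2SA. YAP2SA was the lowest group for both. The difference between YAP2SA and Control was -1.17 for COL4A1 (SE 0.10, adjusted p = 3.2e-06, mean FPKM 2.30-fold lower) and -0.90 for COL4A2 (SE 0.09, adjusted p = 1.3e-05, 1.88-fold lower), so COL4A2 missed the fold threshold. The ratio of COL4A2 to COL4A1 FPKM lay at 1.91 to 2.07 in Control, 1.93 to 2.12 in YAPS127A,S94A, 2.17 to 2.36 in YAPS127A and 2.41 to 2.48 in YAP2SA, and was not tested.

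COL4A1 and COL4A2 lie head to head, and their RefSeq windows before the start share 126 bases. The COL4A1 window, chr13:110307158-110307407 on GRCh38.p14 (minus strand), is shown with the bases that it shares with the COL4A2 window in capitals, because the genes fell together.
COL4A1: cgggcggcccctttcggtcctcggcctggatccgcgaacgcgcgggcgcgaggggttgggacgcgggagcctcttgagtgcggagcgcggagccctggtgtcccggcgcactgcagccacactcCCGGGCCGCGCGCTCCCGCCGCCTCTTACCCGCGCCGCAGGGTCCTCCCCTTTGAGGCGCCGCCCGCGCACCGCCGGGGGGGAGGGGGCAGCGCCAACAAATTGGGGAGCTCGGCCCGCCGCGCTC
Neither the TEAD motif nor the AP-1 motif occurred in this window. Among the other type IV genes COL4A5 averaged 0.895 ± 0.279 FPKM in Control and 1.36 ± 0.206 in YAP2SA, a difference of 0.32 (SE 0.11, adjusted p = 0.041). The groups overlapped, with the library labelled Control replicate 3 at 1.21 FPKM and YAP2SA replicate 3 at 1.17 FPKM. COL4A5 reached 1 FPKM in 1 Control library and in all 3 YAP2SA libraries, and so passed the filter mainly through the groups where it is higher. Its head-to-head neighbour COL4A6, 0.3 kb away, was not tested and averaged 0.0450 ± 0.0174 FPKM in Control, 0.0912 ± 0.0363 in YAPS127A,S94A, 0.242 ± 0.0220 in YAPS127A and 0.609 ± 0.184 in YAP2SA. COL4A3 and COL4A4 were at 0.112 FPKM or less.

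Type VI collagen forms filaments around cells from chains of COL6A1, COL6A2 and COL6A3. COL6A1 (chr21:47401684-47424964, plus strand) was at 40.6, 42.1 and 40.8 FPKM in Control, at 40.1, 39.6 and 40.6 FPKM in YAPS127A,S94A, at 31.6, 31.8 and 36.5 FPKM in YAPS127A and at 15.1, 13.7 and 11.7 FPKM in YAP2SA. YAP2SA was far below all other libraries, and fell from Control by 1.55 (SE 0.08, adjusted p = 1.2e-07). COL6A2, whose locus also lists DKFZp586E1322 and which lies 93.1 kb further on the same strand, averaged 27.8 ± 4.29 FPKM in Control and 16.3 ± 1.67 in YAP2SA, a difference of -0.73 (SE 0.11, adjusted p = 0.00041). COL6A3 rose from 0.669 ± 0.168 to 1.13 ± 0.0777 FPKM, a difference of 0.35 (SE 0.10, adjusted p = 0.018), from a level under 1 FPKM in all Control and YAPS127A,S94A libraries. It entered the tested loci only through YAPS127A and YAP2SA, where it is higher, and the difference did not pass without the library labelled Control replicate 3 (adjusted p = 0.067). The ratio of COL6A1 to COL6A2 FPKM was 1.25 to 1.64 in Control and 0.772 to 0.898 in YAP2SA, with no overlap.

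Collagens of anchoring fibrils, basement membrane proteoglycans, membranes and short-chain networks were each represented by a single tested gene. COL7A1 (chr3:48601506-48632762, minus strand, locus shared with MIR711), the anchoring fibril collagen, was at 4.84, 4.19 and 5.26 FPKM in Control, at 3.79, 3.93 and 3.13 FPKM in YAPS127A,S94A, at 3.96, 3.71 and 3.18 FPKM in YAPS127A and at 1.81, 1.84 and 1.53 FPKM in YAP2SA. COL18A1 (chr21:46825080-46933634, plus strand), from whose protein endostatin is cut, was at 9.59, 10.3 and 9.88 FPKM in Control, at 10.9, 10.3 and 9.15 FPKM in YAPS127A,S94A, at 8.39, 7.74 and 10.4 FPKM in YAPS127A and at 4.98, 4.42 and 3.64 FPKM in YAP2SA. Both were lowest in YAP2SA, with differences from Control of -1.08 for COL7A1 (SE 0.11, adjusted p = 1.3e-05) and -1.04 for COL18A1 (SE 0.12, adjusted p = 3.7e-05).

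COL13A1 and COL8A1 moved the other way. COL13A1 (chr10:71561636-71724031, plus strand), a membrane-spanning collagen of adhesion sites, was at 6.09, 4.63 and 4.99 FPKM in Control, at 5.19, 5.03 and 5.66 FPKM in YAPS127A,S94A, at 8.31, 7.28 and 8.76 FPKM in YAPS127A and at 12.2, 13 and 11.4 FPKM in YAP2SA. COL8A1 (chr3:99357319-99518070, plus strand), a network collagen made by vessel walls, was at 1.30, 0.992 and 1.25 FPKM in Control, at 0.655, 0.921 and 0.740 FPKM in YAPS127A,S94A, at 2.30, 2.06 and 2.40 FPKM in YAPS127A and at 3.17, 4.01 and 3.86 FPKM in YAP2SA. Both rose in 2 steps, through YAPS127A to YAP2SA, without overlap between these groups. YAP2SA exceeded Control by 1.09 for COL13A1 (SE 0.10, adjusted p = 7.1e-06) and by 1.10 for COL8A1 (SE 0.10, adjusted p = 8.6e-06). COL8A1 reached 1 FPKM in 2 Control libraries and in no YAPS127A,S94A library. It thus passed the filter only with YAPS127A and YAP2SA, where it is higher. Of the other short-chain genes, COL8A2 was not tested and stood at 0.140 to 0.399 FPKM in Control and at 0.612 to 0.758 FPKM in YAP2SA. COL10A1, COL14A1, COL15A1, COL17A1, COL20A1, COL21A1, COL22A1, COL23A1, COL25A1, COL28A1, COL6A5 and COL6A6 were all at 0.420 FPKM or less in every library.

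The sum over all 43 collagen genes gives the balance of classes. It was 562, 596 and 669 FPKM in Control, 648, 617 and 654 in YAPS127A,S94A, 498, 534 and 569 in YAPS127A and 369, 385 and 347 in YAP2SA. Total collagen transcript was therefore lowest in YAP2SA, below every other library. Fibrillar genes made up 5.65 to 6.31% of that sum in Control, 4.83 to 5.30% in YAPS127A,S94A, 9.89 to 11.2% in YAPS127A and 34.2 to 34.3% in YAP2SA. FACIT genes made up 42.2 to 42.5%, 41.4 to 45.3%, 36.9 to 39.2% and 19.2 to 21.0% in the same order. The share of type IV genes was 36.4 to 37.1% in Control and 29.9 to 32.6% in YAP2SA. Summed fibrillar FPKM averaged 36.0 ± 5.38 in Control and 126 ± 6.73 in YAP2SA, and summed FACIT FPKM 258 ± 24.1 and 73.8 ± 7.03. A few genes carry these sums, COL5A2 and COL1A1 in the fibrillar class and COL9A3 among FACITs. These shares too are given as a description.

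**Figure D3:**
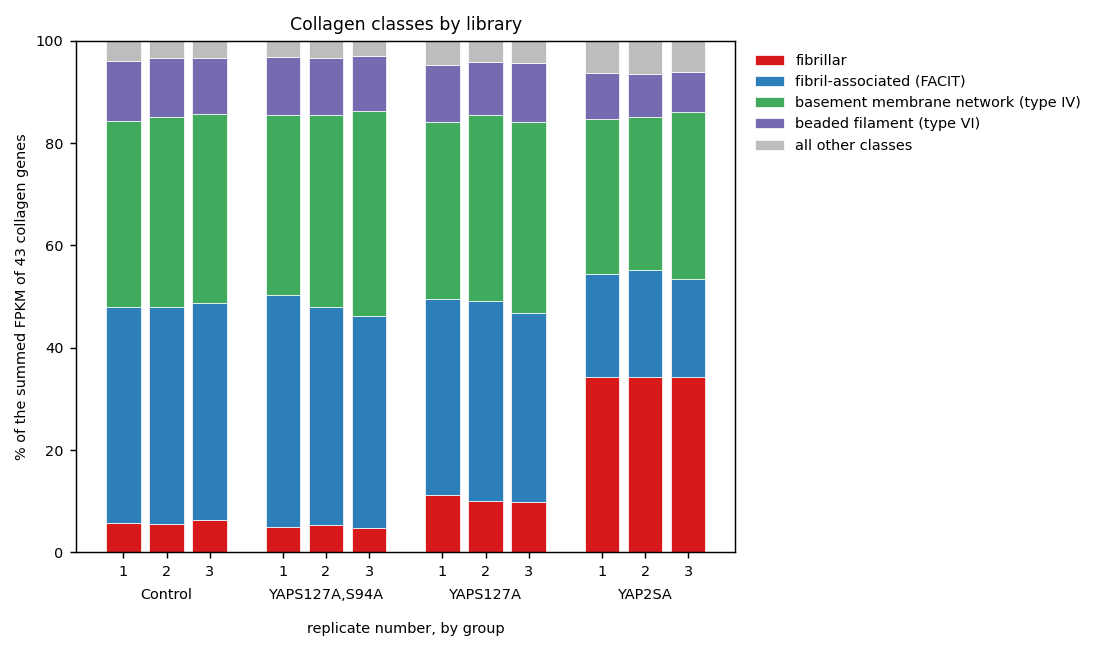
Share of the summed FPKM of 43 collagen genes that each class takes, as stacked bars for each of 12 libraries. The fibrillar share is 5.65 to 6.31% in Control and 34.2 to 34.3% in YAP2SA, and the FACIT share is 42.2 to 42.5% and 19.2 to 21.0%.

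In YAPS127A cells COL1A1 and COL12A1 led the collagen genes that rose, and no collagen gene fell by adjusted p. Of the 21 genes, 2 were higher than in Control past both thresholds (2.07% of all loci), COL1A1 by 2.64 (SE 0.13, adjusted p = 9.4e-07, FPKM ratio 22.6) and COL12A1 by 1.27 (SE 0.24, adjusted p = 0.0098, ratio 2.58), and 0 were lower (0.405% of all loci, and 2.47% in either direction). By adjusted p alone 6 were higher (4.56% of all loci), adding COL5A1, COL5A2 (0.58), COL8A1 (0.58) and COL13A1 (0.55), and 0 were lower (1.75% of all loci, and 6.31% in either direction), with 5 lower at an unadjusted p under 0.05. These 5 were COL4A1 (-0.34), COL6A1 (-0.30), COL7A1 (-0.32), COL9A2 (-0.40) and COL9A3 (-0.41), with adjusted p from 0.061 to 0.13. COL19A1, the gene with the largest fall in YAP2SA, differed by -0.31 in YAPS127A (SE 0.16, adjusted p = 0.33). Without the library labelled Control replicate 3, COL5A1 also passed both thresholds and 3 genes did. COL12A1 lost its call when only the YAPS127A and Control libraries were fitted (adjusted p = 0.087).

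YAPS127A,S94A cells carry the form of YAP that is defective in TEAD binding, and no collagen gene differed from Control in them by adjusted p. In limma 0 of 21 genes were higher and 0 lower, with or without the fold threshold, and also without the library labelled Control replicate 3. Of all loci 0.0797% were higher and 0.093% lower past both thresholds (0.173% in either direction), and 0.0864% higher and 0.093% lower by adjusted p alone (0.179%). At an unadjusted p under 0.05, 0 were higher and 3 lower: COL7A1 (-0.32), COL8A1 (-0.30) and COL5A2 (-0.26). The adjusted p was 0.86, 0.88 and 1 for these genes. COL1A1 averaged 0.209 ± 0.0497 FPKM in YAPS127A,S94A and 0.322 ± 0.0975 in Control, with overlapping libraries. The YAP1 transcript averaged 154 ± 6.73 FPKM in these cells and 168 ± 16.5 in YAPS127A.

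A direct comparison of YAPS127A with YAPS127A,S94A gave 3 genes higher past both thresholds (2.54% of all loci). It gave 1 gene lower (0.95% of all loci, and 3.49% in either direction). The group means compared here contain no Control culture. The filter and the spread per gene, however, came from the fit to all 12 libraries, Control included. Dropping Control replicate 3 kept both counts and moved the adjusted p of COL12A1 from 0.0036 to 0.00011. COL1A1 was higher by 2.76 (SE 0.13, adjusted p = 5.9e-07, FPKM ratio 34.7), COL12A1 by 1.45 (SE 0.24, adjusted p = 0.0036, ratio 3.25) and COL8A1 by 0.88 (SE 0.10, adjusted p = 0.00037, ratio 2.92). The lower gene was COL9A2 (-0.70, SE 0.14, adjusted p = 0.0091), whose FPKM ratio of 0.499 lay at the threshold, and the call was lost without YAPS127A replicate 1 or 2 or YAPS127A,S94A replicate 3. By adjusted p alone 6 were higher (6.36% of all loci) and 3 lower (4.31%, and 10.7% in either direction), which added COL5A1 (0.81), COL5A2 (0.85) and COL13A1 (0.53) above and COL9A3 (-0.52) and COL4A1 (-0.44) below.

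The group means compared for YAP2SA with Control and for YAPS127A with YAPS127A,S94A share no library, and their collagen values are set side by side. Both comparisons come from 1 fit with a common filter and a common estimate of spread per gene. Their calls by adjusted p are therefore not independent. All 6 genes higher by adjusted p in the second were among the 9 higher in the first (66.7% of the 9), and all 3 lower in the second were among the 11 lower in the first (27.3% of the 11). Over all loci tested, 89.1% of those higher in the second were higher in the first and 79.7% of those lower were lower. The sign agreed for 20 of 21 collagen genes, and the exception was COL7A1, at -1.08 and 0.00. Over all loci the sign agreed for 69.4%, but only 42.3% of all loci passed by adjusted p in the first comparison. Of the collagen genes all but COL16A1 did, so the 2 shares are not like for like. COL5A2 and COL19A1 show how size varied, with 1.85 and 0.85 for COL5A2 and -4.24 and -0.37 for COL19A1.

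**Figure D4:**
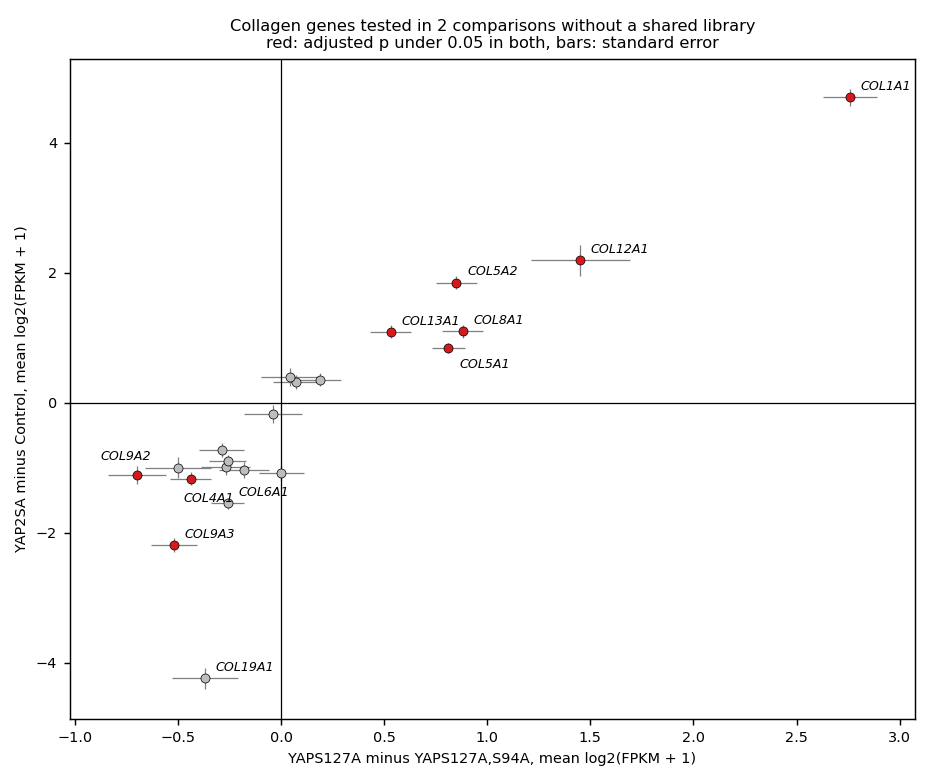
Difference between YAPS127A and YAPS127A,S94A (x axis) and between YAP2SA and Control (y axis) in mean log2(FPKM + 1) for the 21 collagen genes tested, with SE as bars. The 9 red genes had an adjusted p under 0.05 in both, and COL1A1 is at 2.76 and 4.70.

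YAP2SA, which carries S381A in addition to S127A, differed from YAPS127A at more collagen genes below than above. Of the 21 genes, 2 were higher in YAP2SA past both thresholds (5.17% of all loci), COL1A1 and COL5A2 (1.27, SE 0.10, adjusted p = 4.4e-06), and 8 were lower (5.94% of all loci, and 11.1% in either direction): COL19A1, COL9A3 (-1.79), COL6A1 (-1.25), COL18A1 (-0.88), COL11A2 (-0.77), COL7A1 (-0.76), COL2A1 (-0.73) and COL9A2 (-0.72). By adjusted p alone 6 were higher (18.3% of all loci) and 11 lower (14.5%, and 32.8% in either direction). COL12A1 was higher by 0.92 (SE 0.24, adjusted p = 0.014) with a ratio of 1.98, COL13A1 by 0.53 and COL8A1 by 0.52. The calls of COL18A1 and COL7A1, whose ratios were 0.492 and 0.478, were lost in some fits without a library, YAPS127A replicate 3 or YAP2SA replicate 3 for COL18A1 and YAPS127A replicate 1 or YAP2SA replicate 3 for COL7A1.

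Genes that build collagen were then taken from a list of 36 hydroxylases, chaperones, proteinases and cross-linking enzymes, of which 30 were tested. The locus of LEPREL2 also lists GNB3 and GPR162. In YAP2SA against Control 3 were higher and 4 lower past both thresholds, where 7.59% and 7.86% of all loci were, and the median of the 30 was -0.18. The counts were also 3 and 4 without the library labelled Control replicate 3. The cross-linking enzymes of the lysyl oxidase family, which join collagen chains through lysine residues, split, with LOXL1 and LOXL2 higher and LOXL3 and LOXL4 lower. LOXL2 was at 35.1, 33.6 and 37.2 FPKM in Control and at 117, 118 and 107 FPKM in YAP2SA (difference 1.66, SE 0.07, adjusted p = 3.0e-08), with 60.6 ± 6.51 FPKM in YAPS127A and 36.0 ± 0.924 in YAPS127A,S94A. LOXL1 was listed at 0 in all Control and YAPS127A,S94A libraries, at 0.543, 0.947 and 0.344 FPKM in YAPS127A and at 4.0, 3.6 and 3.44 FPKM in YAP2SA, and entered the tested loci through YAP2SA alone (adjusted p = 1.6e-07). LOXL3 fell from 111 ± 7.63 FPKM in Control to 35.3 ± 7.37 in YAP2SA (-1.64, SE 0.12, adjusted p = 1.2e-06). LOXL4 fell from 202 ± 50.9 to 47.6 ± 6.11 FPKM (-2.04, SE 0.19, adjusted p = 9.8e-06). LOX itself was not tested, at 0.269 FPKM or less.

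Among the modifying enzymes LEPREL1, a prolyl hydroxylase known to act on type IV collagen, rose from 1.61 ± 0.597 FPKM in Control to 4.41 ± 0.350 in YAPS127A (1.07, SE 0.15, adjusted p = 0.0013) and 19.4 ± 0.890 in YAP2SA (2.99, SE 0.15, adjusted p = 5.4e-08). The other genes of the hydroxylase group stayed within 2-fold in YAP2SA against Control, including P4HB at 277 ± 16.7 and 289 ± 7.07 FPKM (adjusted p = 0.56). The collagen chaperone SERPINH1 averaged 58.2 ± 4.59 and 67.3 ± 4.79 FPKM (adjusted p = 0.11). PLOD3, a lysyl hydroxylase, fell by 0.96 (SE 0.08, adjusted p = 3.7e-06) with mean FPKM 1.96-fold lower. PCOLCE2, an enhancer of procollagen C-propeptide removal, fell by 1.06 (SE 0.10, adjusted p = 1.2e-05), and ADAMTS3, a procollagen N-proteinase, fell by 0.78 (SE 0.12, adjusted p = 0.00031). ADAMTS3 was under 1 FPKM in every YAP2SA library and passed the filter only through the other groups, where it is higher. In YAPS127A against Control LEPREL1 and LOXL1 passed both thresholds as higher (2.07% of all loci) and 0 of 30 were lower (0.405%). In YAPS127A,S94A against Control 0 of 30 passed in either direction by limma (0.173% of all loci), with 0 higher and 0 lower at an unadjusted p under 0.05.

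Of 8 tested collagen receptors, 0 were higher and 3 lower past both thresholds in YAP2SA against Control, where 7.59% and 7.86% of all loci were, and 2 were lower without the library labelled Control replicate 3. Among the 8, the locus of ITGA1 also lists AK097288 and PELO, and that of GP6 also lists AK122764 and RDH13. Neither passed both thresholds. ITGA10, a collagen-binding integrin chain, averaged 4.61 ± 1.47 FPKM in Control and 0.803 ± 0.136 in YAP2SA (-1.61, SE 0.18, adjusted p = 3.1e-05). ITGA10 was under 1 FPKM in every YAP2SA library and passed the filter only through the other groups, where it is higher. DDR1, a collagen-activated receptor kinase, averaged 31.7 ± 1.94 and 14.5 ± 1.14 FPKM (-1.08, SE 0.12, adjusted p = 4.2e-05), while the related DDR2, whose locus also lists AF268386, averaged 21.4 ± 4.13 and 31.5 ± 2.21 FPKM (0.55, SE 0.12, adjusted p = 0.0044). MRC2, an endocytic collagen receptor, was at 17, 19.3 and 31 FPKM in Control and averaged 10.5 ± 1.06 FPKM in YAP2SA (-0.98, SE 0.18, adjusted p = 0.0012). Without the library labelled Control replicate 3, the highest of these, MRC2 was 1.72-fold lower and missed the fold threshold (-0.73, adjusted p = 0.00038).

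Of 10 fibril-binding proteoglycans and partners, 5 were tested, and 1 was higher and 2 lower past both thresholds in YAP2SA against Control, where 7.59% and 7.86% of all loci were. Among those tested, TNXB, whose locus also lists ATF6B, passed neither threshold. BGN, the small proteoglycan biglycan that binds type I fibrils, was at 8.47, 8.83 and 11.4 FPKM in Control, 7.04 to 8.29 FPKM in YAPS127A,S94A, 37.3, 36.3 and 31.0 FPKM in YAPS127A and 125, 131 and 106 FPKM in YAP2SA, the same order as COL1A1. Its difference from Control was 1.77 in YAPS127A (SE 0.12, adjusted p = 1.3e-05) and 3.53 in YAP2SA (SE 0.12, adjusted p = 4.0e-09). SPARC, a collagen-binding matricellular protein, fell from 586 ± 51.9 to 279 ± 16.2 FPKM in YAP2SA (-1.07, SE 0.09, adjusted p = 3.2e-06). FN1, the gene of fibronectin, averaged 14.7 ± 7.08 FPKM in Control, with 10.7, 10.5 and 22.9 FPKM by library, and 7.07 ± 0.309 in YAP2SA (-0.87, SE 0.28, adjusted p = 0.029). Without the library labelled Control replicate 3 FN1 was 1.5-fold lower and passed neither threshold (-0.52, adjusted p = 0.082), which left 1 partner lower.

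**Figure D5:**
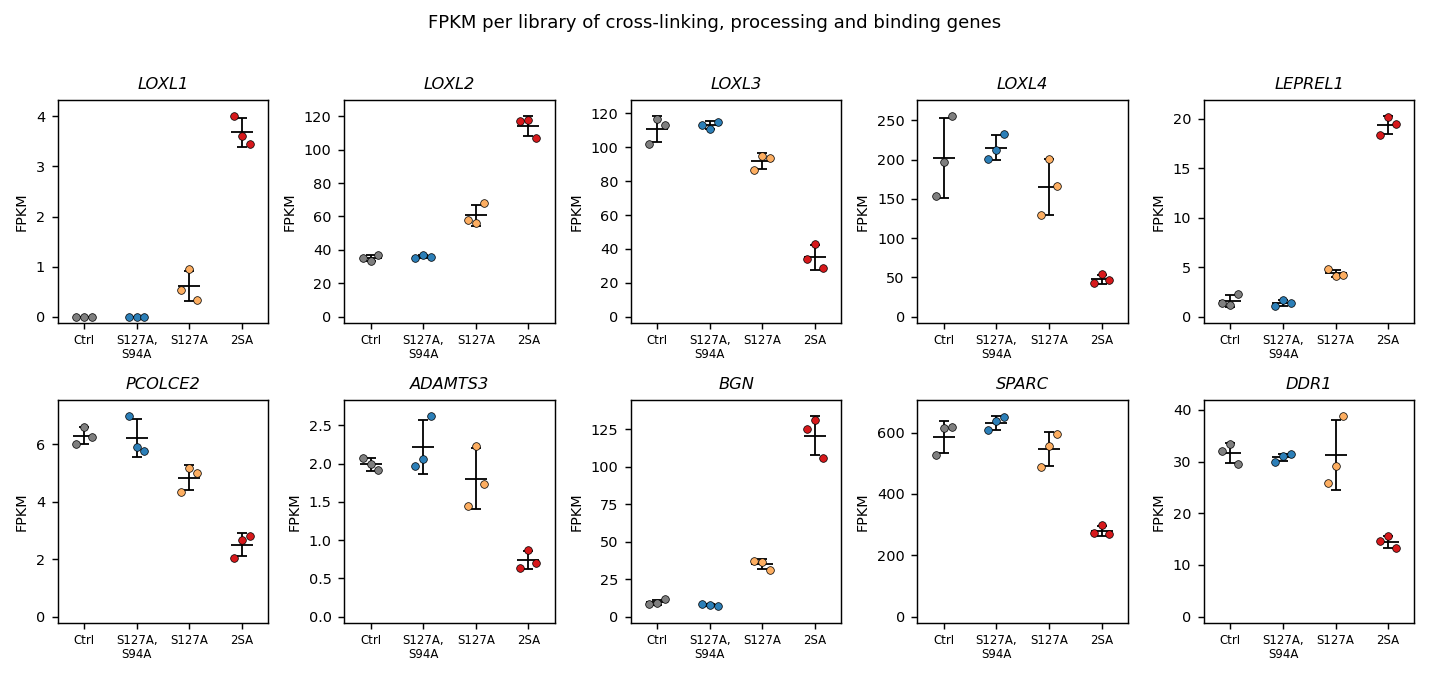
FPKM in each library (points), with group mean and SD (bars, n = 3) in Control (Ctrl), YAPS127A,S94A, YAPS127A and YAP2SA (2SA), of lysyl oxidase-like genes, other collagen-processing genes, BGN, SPARC and DDR1. LOXL1, LOXL2, LEPREL1 and BGN are highest in YAP2SA, and LOXL3 falls from 111 to 35.3 FPKM.

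Exons of several collagen genes overlap a gene on the other strand, and whether reads were counted by strand is not given in the sources used here. The overlap covered 18.5% of the exonic bases of COL18A1 (with SLC19A1), 3.20% of COL9A3 (with TCFL5), 0.772% of COL19A1 (with LMBRD1) and 0.655% of COL1A1. The partners were measured at 16.6 and 10.6 FPKM for SLC19A1, 25.2 and 19.7 FPKM for TCFL5 and 4.07 and 7.72 FPKM for LMBRD1 in YAP2SA and Control. SLC19A1 rose (0.61, SE 0.09, adjusted p = 3.0e-04) where COL18A1 fell, and LMBRD1 fell by 0.77 (SE 0.12, adjusted p = 0.00045) where COL19A1 fell by 4.24.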

How the data were processed

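RNA of 12 A375 cultures, 3 for each of 4 groups, had been sequenced and aligned to hg19 with UCSC known genes. The submitters' processing notes name bcl2fastq 2.15.0, Bowtie2 2.0.0, TopHat2 2.0.4 and Cufflinks 2.0.2. The authors deposited a table of log2(FPKM + 1) values per locus and library. How reads with several alignments and strand were handled is not given in the sources used here. Whole reads could not be recovered from the FPKM steps, so depth is unknown and no counting interval is given. Of 31588 rows, 3 identical ones were removed, and 2179 loci list several symbols. A filter of 1 FPKM, to be reached in 3 or more libraries, left 15055 loci, to which limma 3.58.1 (R 4.3.3) was applied, with 1 mean per group over all 12 libraries, an intensity trend and Benjamini-Hochberg adjustment over all loci, after the script was tested on simulated data. Fold changes on this log scale understate the change of low genes. Gene positions and overlaps came from GENCODE on GRCh37, the build of the files, and upstream windows from RefSeq on GRCh38.p14. Plots used matplotlib 3.10.9 under Python 3.11.15. Collagen genes were all named, with values in every library for those past both thresholds, and genes of the other lists where past both thresholds in YAP2SA or YAPS127A against Control. The collagen members, the gene lists and the tests were chosen with earlier results of these data known. Alternatives covered filters, scaling, pseudocount, trend, fold threshold, libraries fitted, a replicate block and each library left out.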

Additional observations from a re-analysis of the deposited data

Results flagged for a closer look

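A second locus listed as COL5A1, which the comparisons above did not use because its mean was lower, held signal above Control. It averaged 0.727 ± 0.530 FPKM in YAP2SA (0.434, 0.408 and 1.34 FPKM by library), 0.322 ± 0.192 in YAPS127A, 0.213 ± 0.0633 in YAPS127A,S94A and 0.0672 ± 0.0592 in Control. YAP2SA did not overlap Control, the locus was under the filter and the difference was not tested. Adding both loci brought COL5A1 past both thresholds in YAP2SA and YAPS127A against Control. Groups of 3 libraries are too small for a search for outlying samples.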

How the results depend on the processing

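No collagen difference with an adjusted p under 0.05 changed sign under any alternative that was run, and median-ratio scaling, quantile normalization, a pseudocount of 0.1, no intensity trend and a filter at 0.3 FPKM left every count of calls within 1.5 times. With no filter the higher collagen genes were 9 in YAP2SA against Control and 6 against YAPS127A, and 5 biosynthesis genes were higher. With only the groups compared, 1 gene was higher in YAPS127A than in Control and 0 lower in YAPS127A than in YAPS127A,S94A, and the cause was not tested. With no fold threshold, higher collagen genes were 9 in YAP2SA and 6 in YAPS127A against Control, 6 in YAP2SA against YAPS127A and 6 in YAPS127A against YAPS127A,S94A, where 3 were lower, and of biosynthesis genes 6 were higher and 9 lower. With the fold taken on the log2(FPKM + 1) scale, 3 were lower in YAP2SA than in YAPS127A and 0 in YAPS127A than in YAPS127A,S94A. Leaving out a library gave 0 to 1 lower genes in YAPS127A against YAPS127A,S94A. Replicate numbers did not pair the samples (correlations of same-numbered libraries -0.15 to 0.16, 2 of 18 pairs over 0.1), and with the number as a replicate block the counts stayed at 5 higher and 9 lower in YAP2SA against Control and changed no other count of collagen calls. The 22 collagen genes under the main filter were tested only with the lower filter or none, and with depth unknown their counting error cannot be given.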
